A study of Homo sapiens with 9 samples.

Results

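The 31 genes described here make cholesterol, bring it into the cell, move and store it, or send it out, and they were followed in LN229 cells, an established human glioblastoma line, after the addition of formate. They were taken by symbol from a table of 23727 genes, and all 31 were found there and passed the filter on low counts. By role, 8 act in the mevalonate and isoprenoid steps, 14 in the steps from squalene through the sterol rings, 5 in uptake, trafficking and esterification, and 4 in export and its nuclear receptors. Membership goes by function, but the list was drawn up with earlier results of these data known. Formate, the salt form of formic acid, feeds single-carbon units into folate metabolism. The 9 RNA-seq libraries formed 3 groups of 3: untreated cells at 0 h, cells given 500 µM sodium formate for 8 h, and cells given it for 24 h. Per the labels' protocols, all groups grew in DMEM with 10% fetal bovine serum, 17 mM glucose and 2 mM glutamine, and serum lipoproteins are a source of cholesterol besides synthesis. Formate and time in culture cannot be told apart, because the untreated libraries were all taken at 0 h.

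Cells build cholesterol from acetyl-CoA. The mevalonate steps make isoprenoid diphosphates, these are joined to squalene, and squalene is closed into a sterol whose rings are then trimmed and reduced in the endoplasmic reticulum. When sterol in that membrane is low, the transcription factor SREBP-2 is released from it and raises transcription of most synthesis genes, binding sterol elements next to sites of the partner factors NF-Y and Sp1. When oxysterols are plentiful, the nuclear receptors LXR-alpha and LXR-beta raise transcription of the exporters ABCA1 and ABCG1 and of MYLIP. Glioblastoma cells are known for drawing on both synthesis and lipoprotein uptake.

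Library totals ran from 22222298 to 25848242 counts, so 3 counts corresponded to 0.116 to 0.135 CPM (counts scaled to the size of the library, adjusted with TMM factors from edgeR). Untreated replicate 1 and 8 h replicate 1 lay apart from the other libraries of their groups, with a chi-square per degree of freedom over genes of 21.8 to 58.7 against them, where replicates 2 and 3 differed by 8.51 and 10.7. At 24 h replicate 1 differed by 13.7 and 24.2 from replicates 2 and 3, which differed from each other by 8.81. No library repeated another. Of 13 measured glioma, astrocyte and neural progenitor markers, 10 reached a mean of 1 CPM over the 9 libraries, with VIM highest at 4330 CPM, while GFAP, SLC1A2 and ALDH1L1 stayed under 1 CPM. By the same mean, none of 5 leukocyte or 4 endothelial markers reached 1 CPM, although VWF, an endothelial marker, averaged 1.28 CPM at 24 h against 0.424 at 0 h and 0.452 at 8 h, which was not tested further. Of 7 epithelial markers 3 reached it, with KRT18 highest at 123 CPM and EPCAM and CDH1 under 1 CPM. Mitochondrially encoded genes took 0.725% to 1.43% of the counts at 0 h and 8 h and 1.56% to 1.81% at 24 h, and their part in the results below was not tested. No label states that the replicates were separate cultures, so p-values measure the spread between these libraries, which may be technical. In such bulk RNA, a change in the number of expressing cells and a change in RNA per cell cannot be told apart.

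After 24 h, genes at many steps of cholesterol synthesis were higher than at 0 h, together with the sterol carrier gene STARD4 and the exporter gene ABCG1. Adjusted by Benjamini-Hochberg over all 15273 tested genes, with a threshold of 0.05, edgeR's quasi-likelihood test passed 10 of the 31 (32.3%), all of them higher. Of all tested genes 4.25% passed, 2.47% as higher and 1.77% as lower. The 10 were HMGCS1, MVD, IDI1, FDFT1, SQLE, LSS, MSMO1, DHCR7, STARD4 and ABCG1, and their fitted log2 fold changes lay between 0.43 and 1.02. The fitted change was above 0 for 26 of the 31 members, against 50.9% of all genes. The median over the members was 0.42 on the log2 scale and 0.007 over all genes. Replicates of 24 h lay wholly above those of 0 h for 17 members and wholly below for 0, where 15.9% of all genes lay wholly above and 14.4% wholly below.

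Same-numbered replicates of 0 h and 24 h had correlated deviations (r from 0.164 to 0.367). Untreated replicate 3 and 24 h replicate 2, of different numbers, did too (0.27), and no label states a pairing. A fit with the replicate number as a block was made as well. With the block, 15 members passed, again all higher (48.4%, against 24.1% of all genes and 12.6% as higher). CYP51A1, SC5D, ERG28, FAXDC2 and MYLIP joined the 10 genes called without it. Library by library, 19 members were higher at 24 h than at 0 h in all 3 same-numbered pairs, and 2 (EBP and NR1H2) were lower in all 3, where 27.3% of all genes were higher and 26.8% lower. Without the block, 0 members and 0% of all genes passed when 24 h replicate 2 or 24 h replicate 3 was left out. In both of these fits 15 members had an unadjusted p under 0.05, where 2550 of 15521 and 2563 of 15489 genes did. Over all libraries 16 members did, and 26.4% of all genes. Without untreated replicate 2, 6 members passed, where 3.68% of all genes did. MVD, LSS and STARD4 also lost their call without untreated replicate 2, 8 h replicate 2 or 8 h replicate 3, MVD without untreated replicate 1 or 3 as well, and ABCG1 without untreated replicate 1 or 2. Over the 25 alternatives run, the largest adjusted p, with edgeR or DESeq2, was 0.217 for MVD, 0.159 for LSS, 0.171 for STARD4 and 0.143 for ABCG1. With the block, leaving out any of the 9 libraries gave 14 to 19 called members, where 14.2% to 24.5% of all genes were called, and all 10 passed every time. The fit without untreated replicate 1 (19 members) included LBR as lower and the fit without untreated replicate 3 (17 members) EBP as lower.

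After 8 h, no difference was detected in any member. None of the 31 passed edgeR's quasi-likelihood test, where 0% of all genes did, and none had an unadjusted p under 0.05, where 0.517% of all genes did. DESeq2 called 0 as well. Fitted log2 changes at 8 h ran from -0.23 for EBP to 0.30 for CYP51A1, with a median of -0.04, and 10 of the 31 were above 0, against 43.3% of all genes. CYP51A1 and SOAT1 lay wholly above their untreated replicates and HSD17B7 and TMEM97 wholly below. Such lack of overlap was seen in 3.31% of all genes, 1.43% higher and 1.89% lower. For HMGCS1 the 95% interval of the log2 change at 8 h ran from -0.33 to 0.33, and for DHCR7 from -0.24 to 0.21. Both the 8 h and the 24 h changes are measured against the same 3 untreated libraries, and they are given side by side for that reason.

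**Figure D1:**
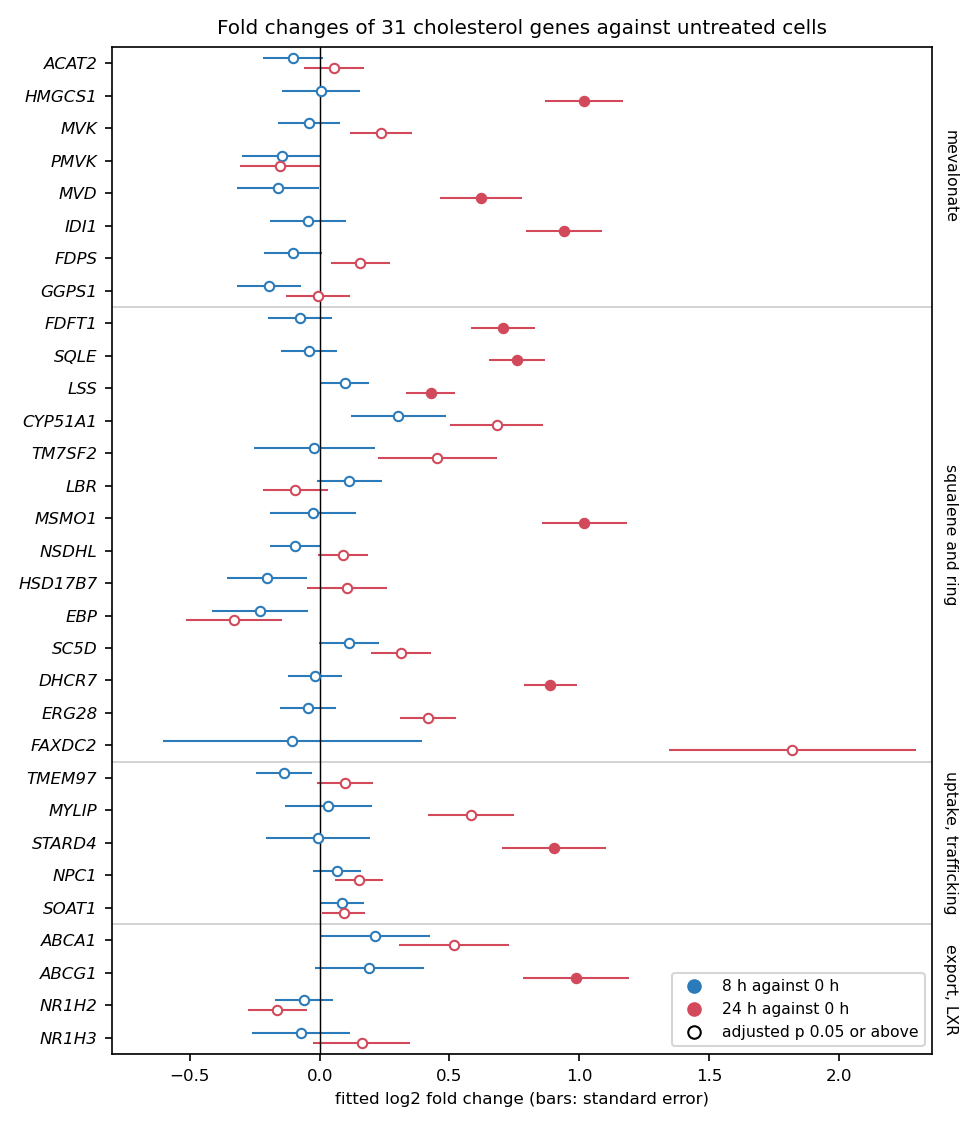
Fitted log2 fold changes (x axis, with standard errors as bars) of the 31 genes, ordered by role, at 8 h (blue) and 24 h (red) against untreated cells; filled points have an edgeR adjusted p under 0.05. At 8 h every point is open and lies between -0.23 and 0.30, while at 24 h the filled points run from 0.43 for LSS to 1.02 for HMGCS1 and MSMO1, and the largest value, 1.82 for FAXDC2, carries a wide bar.

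The DNA just upstream of the members was read from RefSeq on GRCh38.p14, as the 250 bases before each listed transcript start. An entry was found for 27 of the 31 members, with 37 windows in all, and none was found for ACAT2, FDFT1, SQLE and ABCG1. The windows below belong to the 6 genes with the smallest p at 24 h among those with an entry, and they are shown so that the boxes can be seen in place. Each is written 5′ to 3′ on the strand of the gene and ends at the base before the first listed start, and capitals mark CCAAT, the core of the NF-Y site, or ATTGG, the same box on the other strand. They lie at chr11:71448394-71448643 (minus strand) for DHCR7, chr5:43313413-43313662 (minus) for HMGCS1, chr10:1056705-1056954 (minus) for IDI1, chr4:165327419-165327668 (plus) for MSMO1, chr21:46228775-46229024 (minus) for LSS and chr5:111512536-111512785 (minus) for STARD4.
DHCR7: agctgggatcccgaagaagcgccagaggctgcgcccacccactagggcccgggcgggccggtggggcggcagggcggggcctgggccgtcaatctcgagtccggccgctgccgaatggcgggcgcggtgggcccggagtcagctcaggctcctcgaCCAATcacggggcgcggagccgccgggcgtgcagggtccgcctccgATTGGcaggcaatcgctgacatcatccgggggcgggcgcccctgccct
HMGCS1: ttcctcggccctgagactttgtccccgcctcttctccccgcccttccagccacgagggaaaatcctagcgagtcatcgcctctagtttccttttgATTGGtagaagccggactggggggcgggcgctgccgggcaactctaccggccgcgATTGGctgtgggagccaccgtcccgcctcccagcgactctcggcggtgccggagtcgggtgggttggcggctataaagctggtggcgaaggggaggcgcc
IDI1: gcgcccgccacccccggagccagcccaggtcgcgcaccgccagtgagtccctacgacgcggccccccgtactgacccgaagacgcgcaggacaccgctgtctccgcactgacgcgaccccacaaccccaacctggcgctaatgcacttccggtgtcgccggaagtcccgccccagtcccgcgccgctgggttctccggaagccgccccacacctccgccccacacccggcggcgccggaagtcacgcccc
MSMO1: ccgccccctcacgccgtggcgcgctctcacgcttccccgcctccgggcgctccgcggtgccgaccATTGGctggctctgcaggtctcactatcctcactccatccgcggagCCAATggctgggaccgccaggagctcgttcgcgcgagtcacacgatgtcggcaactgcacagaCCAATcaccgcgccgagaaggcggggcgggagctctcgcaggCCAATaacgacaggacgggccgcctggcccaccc
LSS: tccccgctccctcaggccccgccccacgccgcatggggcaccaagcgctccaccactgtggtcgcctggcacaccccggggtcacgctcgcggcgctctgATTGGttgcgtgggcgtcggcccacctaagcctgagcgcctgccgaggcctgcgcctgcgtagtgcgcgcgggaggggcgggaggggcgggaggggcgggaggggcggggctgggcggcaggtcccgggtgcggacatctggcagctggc
STARD4: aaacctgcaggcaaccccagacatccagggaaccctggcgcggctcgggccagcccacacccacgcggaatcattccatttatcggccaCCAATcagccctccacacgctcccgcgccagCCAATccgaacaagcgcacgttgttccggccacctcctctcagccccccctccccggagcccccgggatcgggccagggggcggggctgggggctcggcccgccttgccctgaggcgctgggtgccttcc

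MSMO1 carries 4 boxes, 185, 139, 76 and 34 bases before its start. HMGCS1 carries 2, at 155 and 100 bases, both on the other strand, and DHCR7 2, at 94 and 48 bases. STARD4 has 2 boxes at 161 and 130 bases and LSS a single box at 150 bases. The first IDI1 window, which lies outside the span of the gene in GENCODE, holds none, while the windows of its other listed starts hold 3 and 2. Over any listed start, CCAAT on either strand was found in 20 of the 27 members (74.1%), against 37% of the 27305 genes with an entry. By role it was found in 6 of 7 mevalonate genes, 9 of 12 squalene and ring genes, 4 of 5 uptake and trafficking genes and 1 of 3 export genes (NR1H3). All 7 called members with an entry held it, as did 13 of the 20 that were not called. The sterol element TCACNCCAC was found in 0 of the 27 (1.09% of all genes), and the LXR element, AGGTCA repeated after a gap of 4 bases, in 0 (0.0183%). A shorter form of the sterol element, CACNCCAC, searched after the longer one gave no match and lying within it, was found in IDI1, SC5D and ABCA1 (11.1% of members, 5.89% of all genes). A match describes the letters only, the lack of one says only that these letters are not in the window, and no binding was measured.

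**Figure D2:**
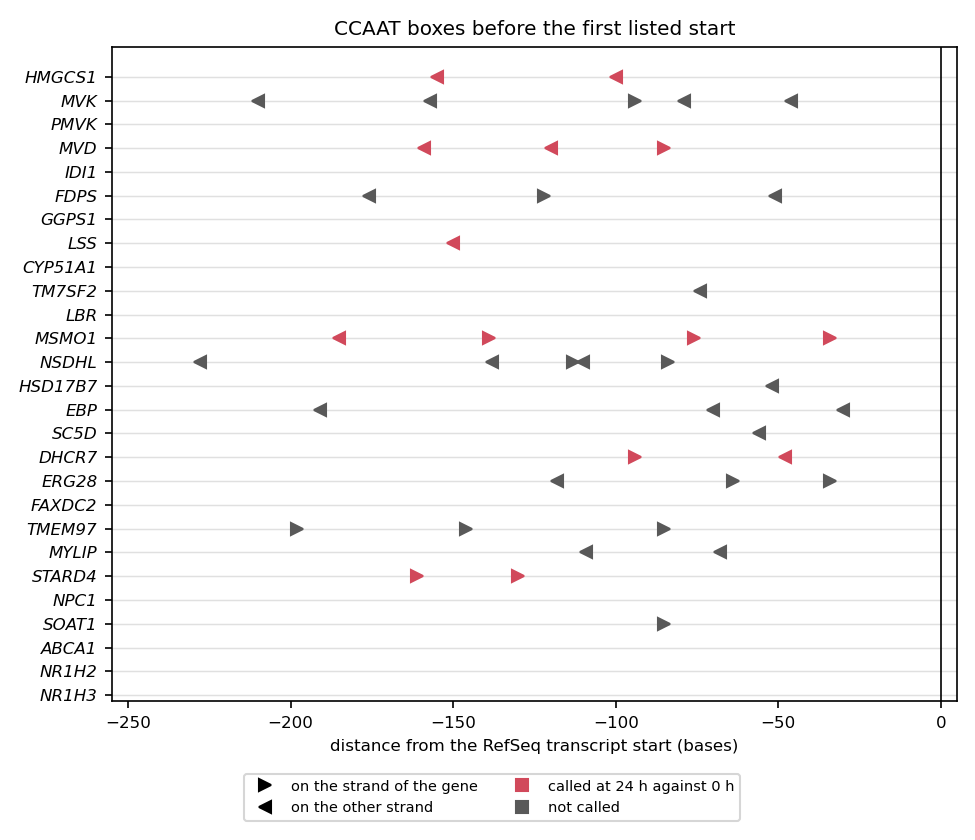
Position of each CCAAT box (x axis, bases from the first listed RefSeq start) in the 27 members with an entry, one line per gene; triangles pointing right are on the strand of the gene and those pointing left on the other, and red marks members called at 24 h against 0 h. MSMO1 has 4 boxes in its window and IDI1 has none in the one drawn.

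In the mevalonate and isoprenoid steps, 3 of 8 genes rose at 24 h and the other 5 did not pass the test. Of all genes, 2.47% were called higher. HMGCS1 makes HMG-CoA, the substrate of the pathway's main control step (ENSG00000112972, chr5:43289395-43313512, minus strand, coordinates here and below from GENCODE release 29 on GRCh38). Its level was 44.5, 57.2 and 66.1 CPM in untreated replicates 1, 2 and 3, 46.4, 60.4 and 61.5 CPM at 8 h and 105, 121 and 115 CPM at 24 h. All 24 h libraries lay above all others, and the lowest library at 0 h and at 8 h was replicate 1. The log2 fold change was 1.02 (SE 0.15, edgeR adjusted p 0.0167).

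IDI1 interconverts the isoprenoid building blocks isopentenyl and dimethylallyl diphosphate (ENSG00000067064, chr10:1039152-1049170, minus strand). Its levels were 47.9, 58.9 and 58 CPM at 0 h, 41.5, 55 and 63.4 CPM at 8 h and 98.2, 105 and 113 CPM at 24 h. The 24 h values again stood clear of the rest, with a log2 fold change of 0.94 (SE 0.15, edgeR adjusted p 0.017). MVD, which decarboxylates the mevalonate product to isopentenyl diphosphate (ENSG00000167508, chr16:88651935-88663161, minus strand), read 29.3, 24.8 and 28.2 CPM at 0 h, 20.4, 25.1 and 28.1 CPM at 8 h and 33.2, 44.3 and 49 CPM at 24 h. Its 24 h replicate 1 lay just above the untreated range and the other 2 well above it. The log2 fold change was 0.62 (SE 0.16) and the edgeR adjusted p, 0.0498, lay at the threshold. MVD passed in 2 of the 9 unblocked fits that each left out a library and in all 9 with the block.

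The 5 other members of this group had fitted log2 changes between -0.15 and 0.24. FDPS, which makes farnesyl diphosphate, was the most abundant of them at 185 ± 28.8 CPM (mean ± SD, n = 3) at 0 h and 206 ± 5.57 CPM at 24 h, and its log2 change was 0.16 (95% interval -0.09 to 0.40). Reads of FDPS may be split with its 8 annotated pseudogenes, and 18.6% of its exon bases overlap genes on the opposite strand. GGPS1, which extends the chain to geranylgeranyl diphosphate for protein anchoring, stood at 17.6 ± 2.69 CPM at 0 h and 17.5 ± 0.687 CPM at 24 h (-0.01, -0.28 to 0.26), and 37.3% of its exon bases are shared with TBCE. MVK and PMVK are the kinases that phosphorylate mevalonate in turn. MVK stood at 19.9 ± 2.65 CPM at 0 h and 23.4 ± 2.04 CPM at 24 h (0.24, -0.03 to 0.50). PMVK stood at 43.2 ± 10.8 CPM at 0 h and 38.8 ± 0.933 CPM at 24 h (-0.15, -0.49 to 0.18). ACAT2, the thiolase that opens the pathway, stood at 65.2 ± 9.83 CPM at 0 h and 67.7 ± 6.12 CPM at 24 h (0.06, -0.20 to 0.31), with 52.3% of its exon bases overlapped on the opposite strand. That overlap was 14.9% for HMGCS1, 14.8% for IDI1, 11.9% for TMEM97, 7.88% for LSS and 5.98% for NPC1, and HSD17B7 and TMEM97 have 2 annotated pseudogenes each. The strand setting of the counts is not given in the sources used here, so reads of such genes cannot be divided between the strands. The intervals of FDPS, GGPS1, MVK, PMVK and ACAT2 all end below a log2 change of 1, a doubling.

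Among the 14 squalene and sterol ring genes, 5 rose at 24 h without the block and 9 with it, and none fell. Of all genes, 2.47% were called higher without the block and 12.6% with it. DHCR7, which carries out the last reduction of one branch to cholesterol, had the smallest p of all members (ENSG00000172893, chr11:71428193-71452868, minus strand). It stood at 59.5, 69.9 and 74.2 CPM at 0 h, 62.4, 69.5 and 69.1 CPM at 8 h and 121, 125 and 131 CPM at 24 h. The 3 libraries of 24 h lay close together and well above the other 6. The log2 fold change was 0.89 (SE 0.10, edgeR adjusted p 0.0149).

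FDFT1, squalene synthase, commits isoprenoids to sterols (ENSG00000079459, chr8:11795573-11839309, plus strand), and SQLE, squalene epoxidase, adds the oxygen that primes ring closure (ENSG00000104549, chr8:124998497-125022283, plus strand). FDFT1 was measured at 81.6, 96.3 and 92.3 CPM at 0 h, 69.9, 94.5 and 91.9 CPM at 8 h and 139.8, 145 and 156 CPM at 24 h (log2 fold change 0.71, SE 0.12, edgeR adjusted p 0.0202). SQLE was measured at 45.1, 50.1 and 52.6 CPM, 42.5, 49.8 and 51.2 CPM and 75.7, 88 and 86.8 CPM at the same times (log2 fold change 0.76, SE 0.11, edgeR adjusted p 0.0167). In both genes replicate 1 was the lowest library of every group and every 24 h library exceeded every other. LSS closes the rings to lanosterol (ENSG00000160285, chr21:46188141-46228824, minus strand). Its levels of 56.8, 54.2 and 61.7 CPM at 0 h, 61.4, 61.9 and 61.4 CPM at 8 h and 70.3, 81.4 and 80.5 CPM at 24 h gave the smallest called change, 0.43 (SE 0.09, edgeR adjusted p 0.0321). LSS passed in 4 of the 9 unblocked fits that each left out a library.

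MSMO1 oxidises the methyl groups that are cut from the sterol ring (ENSG00000052802, chr4:165327623-165343160, plus strand). Its levels were 27.9, 35.3 and 35.7 CPM at 0 h, 25.3, 35.7 and 36.1 CPM at 8 h and 54.9, 70.8 and 74.7 CPM at 24 h. Replicate 1 was low in each group, yet at 24 h it still exceeded every library of 0 h and 8 h. The log2 fold change was 1.02 (SE 0.16, edgeR adjusted p 0.0189).

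FAXDC2 belongs to the same family of membrane hydroxylases as MSMO1 and SC5D (ENSG00000170271, chr5:154818491-154859252, minus strand). It was scarce and varied most between libraries: 1.51, 5.08 and 4.78 CPM at 0 h, 1.09, 4.51 and 5.02 CPM at 8 h and 9.85, 14.1 and 16.6 CPM at 24 h, from 24 to 401 counts. Replicate 1 was the lowest in each group, and the 24 h values did not overlap the others. The log2 fold change was the largest of the members, 1.82 (SE 0.48), with an edgeR adjusted p of 0.0537 and of 0.00037 with the replicate block. ERG28, a scaffold that holds the demethylation enzymes together (ENSG00000133935, chr14:75649791-75661189, minus strand), read 25.1, 27.3 and 25.7 CPM at 0 h, 22.7, 27.4 and 25.5 CPM at 8 h and 32.2, 34.1 and 38 CPM at 24 h. Its change of 0.42 (SE 0.11) had an edgeR adjusted p of 0.0512, and 0.0073 with the block.

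CYP51A1, the lanosterol demethylase (ENSG00000001630, chr7:92112151-92134803, minus strand), and SC5D, which places a ring double bond, also passed with the block only. CYP51A1 stood at 3.58, 5.16 and 5.84 CPM at 0 h, 6.22, 5.86 and 5.96 CPM at 8 h and 8.16, 7.03 and 8.25 CPM at 24 h (log2 fold change 0.68, SE 0.18, edgeR adjusted p 0.0558, with the block 0.0121). Its 8 h libraries already lay above the untreated ones, although the test did not pass. These values are uncertain, because 79.4% of its exon bases are shared with other annotated genes on the same strand and it has 3 annotated pseudogenes. SC5D stood at 38.9, 48.1 and 50.1 CPM, 45, 48.5 and 54.8 CPM and 54.4, 58.6 and 57.2 CPM (log2 fold change 0.31, SE 0.12, edgeR adjusted p 0.129, with the block 0.0221).

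The other 5 ring genes passed in neither fit. EBP, which shifts a ring double bond, stood at 29.8 ± 8.98 CPM at 0 h and 23.7 ± 3.16 CPM at 24 h (log2 change -0.33, 95% interval -0.73 to 0.07). LBR, a ring reductase that also anchors chromatin at the inner nuclear membrane, stood at 171 ± 29.9 CPM at 0 h and 161 ± 8.28 CPM at 24 h (-0.09, -0.37 to 0.18). TM7SF2 catalyses the same reduction as LBR and stood at 4.05 ± 0.575 CPM at 0 h and 5.53 ± 1.39 CPM at 24 h (0.45, -0.05 to 0.96). NSDHL and HSD17B7 finish the removal of the methyl groups begun by MSMO1. NSDHL stood at 27.7 ± 2.38 CPM at 0 h and 29.4 ± 0.787 CPM at 24 h (0.09, -0.12 to 0.30), and HSD17B7 at 9.92 ± 1.09 CPM at 0 h and 10.7 ± 1.81 CPM at 24 h (0.11, -0.23 to 0.44). MSMO1 and the genes of the next steps, NSDHL and HSD17B7, thus gave different values, and the difference between members was not tested. Summed over the 22 synthesis genes, the level was 1078, 1086 and 1106 CPM at 0 h, 1001, 1093 and 1111 CPM at 8 h and 1387, 1481 and 1506 CPM at 24 h. The 3 sums of 24 h were all above the other 6.

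**Figure D3:**
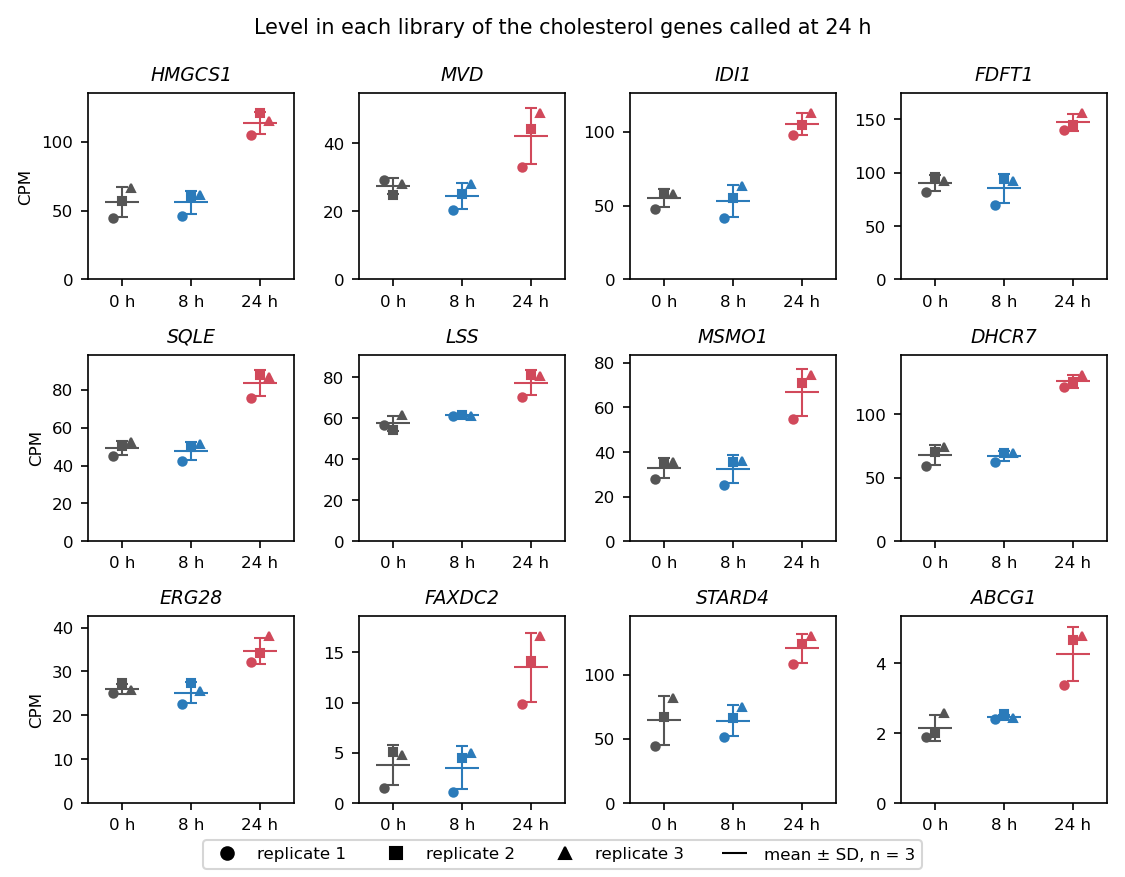
Level in CPM (y axis, from 0) in each of the 9 libraries for the 12 members called at 24 h against 0 h or against 8 h; symbols give the replicate number, bars the mean and SD of 3 libraries, and colours the time. In every panel the 24 h libraries lie above all others, and replicate 1 is the lowest 24 h library, for example 9.85 CPM against 14.1 and 16.6 CPM for FAXDC2.

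Among the 5 genes of uptake, trafficking and esterification, STARD4 rose and MYLIP passed with the block only. STARD4 is a soluble carrier that moves sterol between membranes (ENSG00000164211, chr5:111496033-111512590, minus strand). It read 44.2, 67.3 and 82.1 CPM at 0 h, 51.5, 66.3 and 75 CPM at 8 h and 108, 124 and 129.8 CPM at 24 h. The untreated libraries were spread widely, and the highest of them still lay below every 24 h library. Its log2 fold change was 0.90 (SE 0.20, edgeR adjusted p 0.0345), and it passed in 4 of the 9 unblocked fits that each left out a library.

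MYLIP is a ubiquitin ligase that marks lipoprotein receptors for degradation and is an LXR target (ENSG00000007944, chr6:16129125-16148248, plus strand). Its levels were 13.5, 19.6 and 17.5 CPM at 0 h, 13.4, 20.7 and 17.7 CPM at 8 h and 26, 25.2 and 24.7 CPM at 24 h. The 24 h libraries lay together above the rest, and the log2 fold change was 0.58 (SE 0.17, edgeR adjusted p 0.0662, with the block 0.00625).

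NPC1, SOAT1 and TMEM97 did not pass the test in either fit. NPC1, which releases cholesterol from lysosomes, read 70.6, 77.7 and 76.6 CPM at 0 h, 84.5, 78.4 and 72.8 CPM at 8 h and 86.8, 83 and 80 CPM at 24 h (log2 fold change 0.15, 95% interval -0.05 to 0.35). SOAT1, which esterifies cholesterol for storage, read 87.4, 87.8 and 82 CPM, 96, 89.4 and 87.9 CPM and 91.1, 94.3 and 88.9 CPM (0.09, -0.09 to 0.28). In both genes the 24 h replicates lay above the untreated ones by a margin too small for the test to call. TMEM97, a membrane protein that binds NPC1, read 49.5, 42.9 and 41.8 CPM, 40.8, 41.6 and 39.5 CPM and 53.8, 46.3 and 43.4 CPM (0.10, -0.14 to 0.33), and its groups at 0 h and 24 h overlapped.

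Of the exporters and their receptors, ABCG1 rose and the other 3 did not pass. ABCG1 loads cholesterol onto lipoprotein particles (ENSG00000160179, chr21:42199689-42297244, plus strand). It was scarce, at 1.89, 2 and 2.57 CPM at 0 h, 2.41, 2.54 and 2.43 CPM at 8 h and 3.38, 4.66 and 4.77 CPM at 24 h, which rest on 40, 52 and 58 counts, 53, 58 and 57 counts, and 80, 108 and 115 counts. The groups at 0 h and 24 h did not overlap. Its log2 fold change was 0.99 (SE 0.20, edgeR adjusted p 0.0293), and it passed in 5 of the 9 unblocked fits that each left out a library.

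ABCA1, which passes cholesterol to lipid-poor apolipoproteins, read 9.24, 16.2 and 17.6 CPM at 0 h, 17.4, 16.4 and 16.1 CPM at 8 h and 24.5, 20.5 and 16.7 CPM at 24 h. Untreated replicate 1 was low and the other untreated libraries overlapped those of 24 h. The fitted change of 0.52 (95% interval 0.05 to 0.98) had an edgeR adjusted p of 0.155. The same-numbered differences of ABCA1 had no common sign, since replicate 3 was lower at 24 h than at 0 h. NR1H2 encodes LXR-beta and read 61.8, 50.6 and 50 CPM, 54.4, 52 and 49.3 CPM and 52.2, 43.1 and 49.8 CPM (-0.16, -0.41 to 0.09). NR1H3 encodes LXR-alpha and read 4.67, 4.58 and 5.66 CPM, 4.72, 4.9 and 4.55 CPM and 4.44, 5.26 and 6.96 CPM (0.16, -0.25 to 0.57). Both receptors had overlapping groups.

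Between 8 h and 24 h of formate, 11 of the 31 members passed edgeR's quasi-likelihood test (35.5%), all higher at 24 h, where 4.56% of all genes passed, 2.84% as higher and 1.72% as lower. This comparison shares its 24 h libraries with that against 0 h. The 11 were HMGCS1 (1.02 on the log2 scale), MVD (0.78), IDI1 (0.99), FDFT1 (0.78), SQLE (0.80), MSMO1 (1.04), DHCR7 (0.91), ERG28 (0.46), FAXDC2 (1.93), STARD4 (0.91) and ABCG1 (0.80). LSS, called against 0 h, gave 0.33 here with an edgeR adjusted p of 0.0662. The member median was 0.31, and 27 of the 31 fitted changes were above 0, against 52.1% of all genes. Replicates did not overlap for 19 members that were higher and for 1 that was lower, LBR (-0.21, edgeR adjusted p 0.351), where 18.2% of all genes were higher and 16.2% lower without overlap. Unblocked, 0 members and 0% of all genes passed without 8 h replicate 1, 24 h replicate 2 or 24 h replicate 3. In turn, 13, 14 and 14 members there had an unadjusted p under 0.05. Over all genes the counts were 2078 of 15605, 2446 of 15521 and 2177 of 15489. Over all libraries 15 members did, and 22.8% of all genes. Leaving out 8 h replicate 3 gave 5 called members (0.34% of all genes), and leaving out 8 h replicate 2 gave 6 (2.38%).

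Levels of different genes can be compared only per length, here as CPM per kilobase of annotated exon. At 0 h the highest were FDPS at 49.8 ± 7.75, PMVK at 33.7 ± 8.43 and LBR at 32.6 ± 5.69 CPM per kb (mean ± SD, n = 3), and PMVK and LBR lay within their spread of each other. FDFT1 (17.3 ± 1.46), DHCR7 (16.3 ± 1.83) and ACAT2 (15.2 ± 2.29) followed, also within their spread. The lowest were NR1H3 (1.1 ± 0.133), FAXDC2 (0.525 ± 0.274) and ABCG1 (0.351 ± 0.0595). At 24 h FDPS was still highest at 55.5 ± 1.5 CPM per kb, and LBR (30.6 ± 1.58), PMVK (30.3 ± 0.729), DHCR7 (30.2 ± 1.3) and FDFT1 (28.3 ± 1.6) came next, close to each other. IDI1 (24.3 ± 1.73), HMGCS1 (24.1 ± 1.73), MSMO1 (23.1 ± 3.62) and STARD4 (21.2 ± 2.04) formed the next group. Exon lengths are of all annotated transcripts joined, so a gene with long unused exons reads low.

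**Figure D4:**
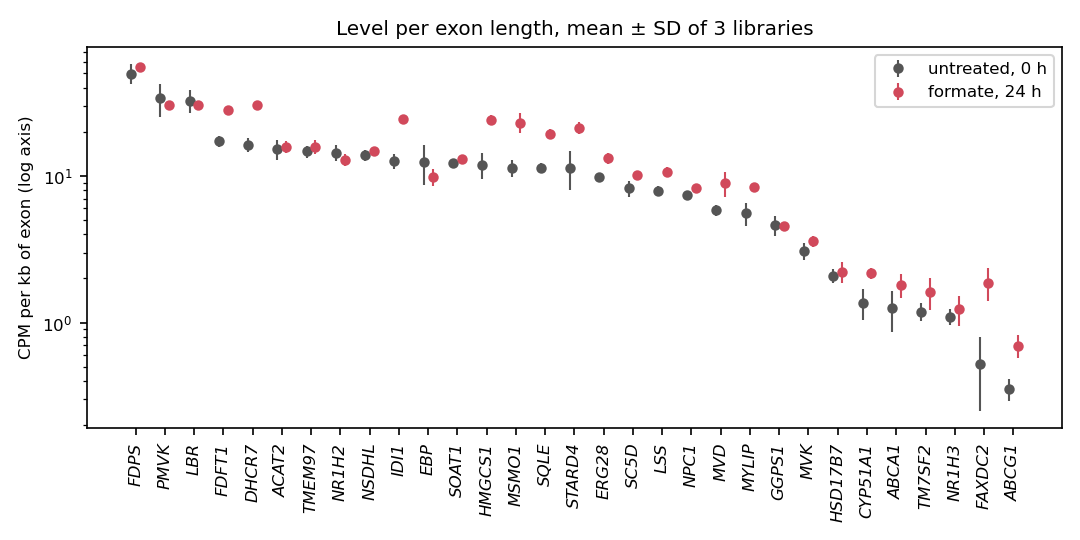
Level per exon length (y axis, CPM per kb, log scale) of the 31 members at 0 h (grey) and 24 h (red), mean and SD of 3 libraries, ordered by the untreated level. FDPS is highest at both times, and ABCG1 lowest, at 0.351 and 0.698 CPM per kb.

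Other genes of sterol control and use were counted from lists by function, in the comparison of 24 h with 0 h. Of all genes, 2.47% were called higher and 1.77% lower in that comparison, and with the replicate block 12.6% and 11.6%. Of 13 genes of SREBP processing and sterol sensing, 3 rose and 0 fell, and the list median was -0.02. With the replicate block, RNF145, a ubiquitin ligase of the endoplasmic reticulum, was also called, as lower (-0.26, edgeR adjusted p 0.14 without the block and 0.035 with it). The genes that rose were INSIG1, which holds SREBP in the endoplasmic reticulum (34.5 ± 13.1 to 113 ± 6.92 CPM, log2 fold change 1.71, edgeR adjusted p 0.0202), SREBF2, which encodes SREBP-2 (129 ± 27.6 to 274 ± 13 CPM, 1.08, 0.0167), and SREBF1, which encodes SREBP-1 (73.5 ± 18.8 to 147 ± 7.24 CPM, 1.0, 0.0311). Of 5 genes of acetyl-CoA supply, ACSS2, which makes acetyl-CoA from acetate, rose (55.2 ± 8.23 to 98.8 ± 15.3 CPM, 0.84, edgeR adjusted p 0.0353), with a list median of 0.11. With the block ACLY, which makes acetyl-CoA from citrate, was called higher as well (0.36, edgeR adjusted p 0.0575 without the block and 0.00915 with it). None of 14 genes that use isoprenoid diphosphates for protein prenylation, dolichol or ubiquinone passed, and their median was -0.14. An unadjusted p under 0.05 was seen in 2 of the 14, where 26.4% of all genes had one.

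Of 25 tested genes of sterol transport and lysosomal release, 1 rose and 1 fell, with a median of 0.05. Without the block, 2.47% of all genes were called higher and 1.77% lower. SCARB1, a receptor for high-density lipoprotein, went from 165 ± 9.84 to 259.5 ± 21.6 CPM (0.65 on the log2 scale, edgeR adjusted p 0.0199), and CAV1, the coat protein of cholesterol-rich caveolae, from 453 ± 22.3 to 303 ± 39.1 CPM (-0.58, 0.0277). With the replicate block 7 of these 25 genes were called higher and 2 lower, where 12.6% of all genes were higher and 11.6% lower. NCEH1, a cholesteryl ester hydrolase, was the single called gene of 6 tested on the oxysterol and bile acid side and fell, from 79.7 ± 6.41 to 41.8 ± 10.4 CPM (-0.93, edgeR adjusted p 0.0268).

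Genes of G2 and mitosis moved the other way in the same libraries. Of 20, 10 fell at 24 h against 0 h and 0 rose, with a median of -0.53, and 14 fell with the block. Of all genes, 1.77% were called lower without the block and 11.6% with it. As a deviation from each gene's mean over the 9 libraries (median over genes, log2), the 22 synthesis genes stood at -0.18, -0.15 and -0.09 at 0 h, -0.18, -0.14 and -0.12 at 8 h and 0.15, 0.30 and 0.37 at 24 h. The mitotic genes stood at 0.21, 0.17 and 0.14 at 0 h, 0.29, 0.17 and 0.11 at 8 h and -0.13, -0.34 and -0.61 at 24 h. Within 24 h, replicate 1 was the lowest for the synthesis genes and the highest for the mitotic genes, and replicate 3 the reverse. The part of cell-cycle stage in the rise of the cholesterol genes was not tested.

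**Figure D5:**
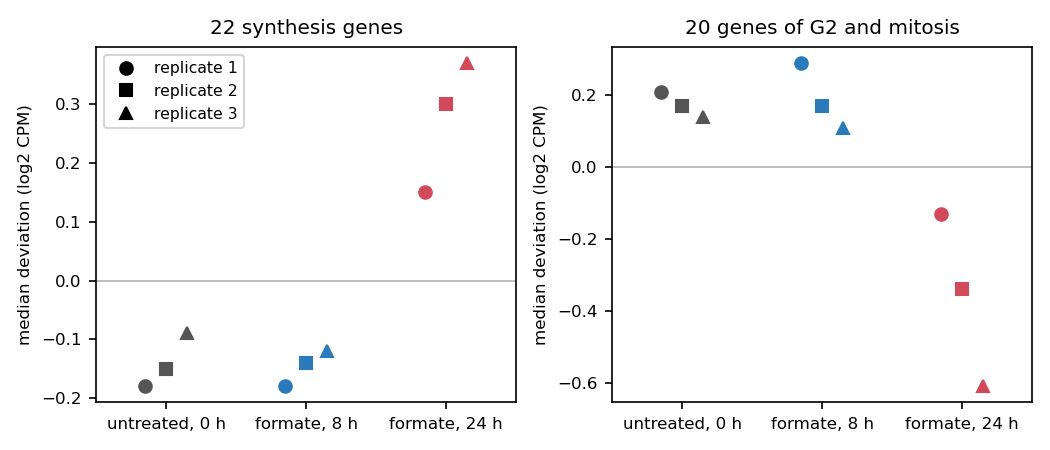
Median deviation in log2 CPM from each gene's mean (y axis) for the 22 synthesis genes (left) and 20 genes of G2 and mitosis (right) in each of the 9 libraries, with symbols for the replicate number. The synthesis genes are positive in the 3 libraries of 24 h only, from 0.15 to 0.37, and the mitotic genes are negative in those 3 only, from -0.13 to -0.61.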

How the data were processed

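RNA from LN229 cells was made into stranded mRNA libraries from RNA with an integrity number above 9, per the labels' protocols. The authors deposited raw counts per Ensembl gene, whole numbers in 1 column per library. Bcl2fastq 2.20.0.422, STAR 2.7.4a and GRCh38 are named, per the submitters' processing notes. The counting program, annotation release and strand setting are not given in the sources used here. A source label spells the cell line differently, and the name in the growth protocol is the one used here.

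Columns were matched to samples by time and replicate number. Symbols were found for 19733 of 23727 genes, and coordinates and exon lengths came from GENCODE release 29. Counts were filtered with filterByExpr (15273 genes kept), scaled with TMM and fitted over the 9 libraries with edgeR 4.0.16 (R 4.3.3), with 1 mean per group. The test was two-sided quasi-likelihood, with Benjamini-Hochberg adjustment over all tested genes at 0.05. Depth was 22222298 to 25848242 counts per library.

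The titles give every group replicates 1 to 3. The correlation of same-numbered deviations was 0.476, 0.432 and 0.414 between 0 h and 8 h, 0.367, 0.164 and 0.251 between 0 h and 24 h, and 0.423, 0.0367 and 0.404 between 8 h and 24 h. Different numbers gave -0.4 to 0.27 between 0 h and 24 h and -0.364 to 0.0108 between 0 h and 8 h. Every same-numbered correlation was above 0.1 in the comparisons with 0 h, and counts with the block are printed there where they differ. The 0.27, of 24 h replicate 2 with untreated replicate 3, was above the same-numbered 0.164 and 0.251. The block was fitted over all 9 libraries, so it also paired 8 h with 24 h. No label states a pairing. Alternatives were DESeq2 1.42.0 and its size factors, other filters, the replicate block, fits of the compared groups only, and leaving out libraries. The members and lists were chosen with earlier results of these data known. All 31 members are described, with values per library for those called at 24 h and for the uptake and export roles. From the other lists up to 3 genes with the smallest p and an adjusted p under 0.05 are named, and RNF145 and ACLY were added after their values were seen. CPM in every library was also given for CYP51A1 and SC5D, which passed with the block only and were chosen after their values were seen. Promoter windows and motifs were read from a RefSeq table. Some genes of this pathway are not reported here.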

Additional observations from a re-analysis of the deposited data

Results flagged for a closer look

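For 11 members, the effect of 24 h differed from the effect of 8 h, both measured against the shared untreated libraries, by edgeR's quasi-likelihood test of the difference. That difference is the same contrast as 24 h against 8 h. On the log2 scale it was 1.93 for FAXDC2, 1.04 for MSMO1, 1.02 for HMGCS1, 0.99 for IDI1, 0.91 for DHCR7 and for STARD4, 0.80 for SQLE and for ABCG1, 0.78 for MVD and for FDFT1, and 0.46 for ERG28.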

How the results depend on the processing

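No called member reversed in any of the 25 alternatives run for each comparison. LBR was called lower without untreated replicate 1 (with the block, in both comparisons of 24 h) and without all libraries numbered 1 at 24 h against 8 h, and EBP without untreated replicate 3 (with the block, against 0 h). At 8 h against 0 h, 0 members and 0 genes passed in all of them, and the member median ran from -0.07 to 0.04 when single libraries were left out.

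For 24 h against 0 h, 649 of all genes became 1656 with DESeq2, 3687 with the replicate block, 124 with only the compared groups fitted and 2616 without all libraries numbered 1 (an alternative chosen after seeing the data); leaving out single libraries gave 0 to 3816. The members numbered 6 with only the compared groups and 0 to 19 with single libraries left out, and their median was 0.33 without the libraries numbered 1 and 0.28 to 0.42 with single libraries left out. For 24 h against 8 h, 696 genes became 1486 with DESeq2, 3130 with the block, 1787 with only the compared groups and 3072 without the libraries numbered 1, with 0 to 5432 when single libraries were left out. The members then numbered 0 to 21, and their median was 0.37 without the libraries numbered 1 and 0.27 to 0.37 otherwise. With the block, 13 members passed in that comparison (20.5% of all genes), LSS and MYLIP besides the 11, while the correlation for number 2 was 0.0367. The cause of these differences was not tested. Depth leaves ABCG1 on 40 to 115 counts per library.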
